A study of Drosophila melanogaster with 2 samples.

Results

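The JAK-STAT genes described here are the 8 core components of that pathway in *Drosophila*, found by symbol among the 17737 genes of the deposited tables. All 8 were present. They are the ligands *upd1*, *upd2* and *upd3*, the receptor *dome* and the short receptor-like gene *et*, the Janus kinase *hop*, the transcription factor *Stat92E*, and *Socs36E*, a target of *Stat92E* that dampens the pathway. They were read in a single-cell expression profile of adult intestines, made from 1 library of D30A guts and 1 library of control guts.

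In both genotypes the second chromosome carried *esgGal4*, *tubGAL80*[ts] and *UASGFP* over a wild-type chromosome, in a *w* background. D30A flies carried *UAS-ImdD30A* on the third chromosome, over a wild-type one, whereas control flies had no insertion there. Virgin females reared at 18 °C spent 10 days at 29 °C, which releases the *esg* driver. ImdD30A is a form of the Imd adaptor that cannot be cleaved and that blocks IMD immune signalling. The driver is known for its activity in progenitors. Its activity in other cell types was not measured. Each library pooled 27 guts, dissociated with elastase at 1 mg/ml and enriched for live cells on a density gradient. With 1 library per genotype, genotype and library cannot be told apart, and no difference between them could be tested.

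In this pathway, Upd cytokines bind Dome, which activates Hop, and Hop phosphorylates Stat92E so that it enters the nucleus and switches on targets such as *Socs36E*. In the fly midgut, stressed or infected enterocytes are known to release Upd3 and Upd2, which drive stem cells to divide and their daughters to mature. Upd1 is known as a niche signal from visceral muscle. Et resembles Dome but dampens its signal. Socs36E feeds back to limit the kinase.

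In the BDGP6.54 annotation, 6 of the 8 genes lie on the X chromosome. The ligands are neighbours there, with *upd2* (FBgn0030904) at 18240654 to 18243284 on the reverse strand, *upd3* (FBgn0053542) at 18277233 to 18284596 on the forward strand, and *upd1* (FBgn0004956) at 18305354 to 18309291 on the reverse strand. The receptors are neighbours too. The span of *dome* (FBgn0043903) is X 19676061 to 19683518, and *et* (FBgn0031055) lies 169 bases away at 19672312 to 19675891, both on the reverse strand. *hop* (FBgn0004864) is at X 11360930 to 11368098, *Stat92E* (FBgn0016917) at 3R 20535323 to 20552311, and *Socs36E* (FBgn0041184) at 2L 18138675 to 18152417, all on the reverse strand. *Socs36E* overlaps a non-coding gene and *et* overlaps *Zw*, each on the opposite strand. The build behind the deposited counts is not given in the sources used here.

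After filtering, 4083 cells remained in the D30A library and 3959 in the control library, with medians of 1703 and 1237 unique molecular identifiers (UMIs, one per captured transcript). The filter on mitochondrial UMIs removed 31.9% of D30A barcodes and 3.39% of control barcodes. Clustering without the JAK-STAT genes gave 26 clusters. Marker genes named 542 D30A and 571 control cells progenitor-like, 157 and 158 enteroendocrine-like, and 2287 and 2510 enterocyte-like. The progenitor marker *esg* was measured at 262 counts per 1000000 UMIs (CPM) in D30A and 219 in control progenitor-like cells, against 72.2 and 94.0 in enteroendocrine-like cells and 7.96 and 5.04 in enterocyte-like cells. Cells of the D30A library were deeper in each class, with medians of 17586 and 10093 UMIs in progenitor-like cells, so levels are given below as CPM over the summed UMIs of a class. Every interval is a 95% interval that covers counting error only. *imd*, the gene behind the transgene, had 14.3 CPM (12.3 to 16.5) in D30A and 9.94 CPM (7.77 to 12.5) in control progenitor-like cells. The 3′ end of the transgene transcript is not known from the sources used here, so this count does not check the labels.

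The libraries shared 127 kept barcodes. In 115 of these pairs one copy had at least 100 times the UMIs of the other, and the median ratio was 165-fold. The deeper copy lay in the D30A library for 93 pairs and in the control library for 34, and these deep cells held 26.5% of kept D30A UMIs and 16.3% of kept control UMIs. Both copies fell in the same cluster for 93 pairs. Values that rest on these cells are given below with and without them.

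Each of the 6 JAK-STAT genes with at least 20 UMIs was higher in progenitor-like than in enterocyte-like cells, in both libraries. Higher here means a ratio of at least 1.5-fold, which 45.1% of all genes tested reached in the D30A library and 52.4% in the control library, with 28.7% and 24.3% lower by as much. The 6 genes were *upd2*, *upd3*, *dome*, *hop*, *Stat92E* and *Socs36E*, and their median log2 ratio was 2.11 in the D30A library and 2.41 in the control library, against 0.41 and 0.66 over all genes. Relative to that median 4 genes remained past 1.5-fold in the D30A library (*upd2*, *upd3*, *dome* and *Socs36E*) and 5 in the control library (these and *hop*). The remaining pair, *upd1* and *et*, had too few UMIs for a ratio.

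**Figure D1:**
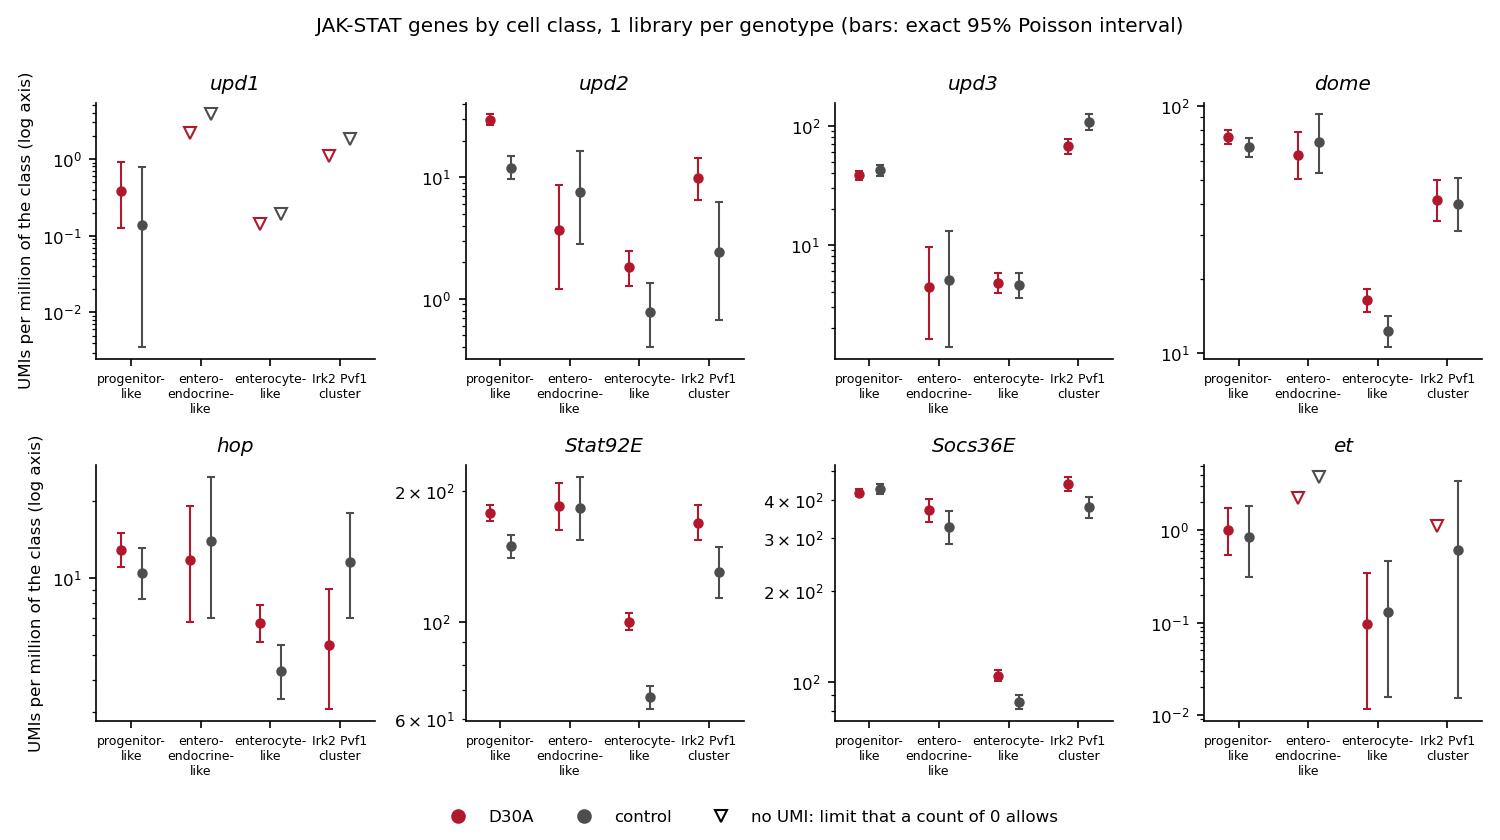
Level of each JAK-STAT gene (CPM, log axis, 95% counting interval) in progenitor-like, enteroendocrine-like and enterocyte-like cells and in the cluster called by its genes *Irk2* and *Pvf1*, with D30A to the left of control in each pair and open triangles at the limit that a count of 0 allows. *upd2* sits at 29.8 in D30A and 12.0 in control progenitor-like cells, *upd3* peaks in the *Irk2* *Pvf1* cluster at 67.3 and 108, and *Socs36E* is lowest in enterocyte-like cells.

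Of the ligands, *upd2* and *upd3* were highest in progenitor-like cells among the 3 named classes, whereas *upd1* was barely captured. *upd1* had 5 UMIs in D30A and 1 UMI in control progenitor-like cells and none elsewhere. Its count of 0 in enterocyte-like cells allows up to 0.143 CPM in the D30A and 0.194 CPM in the control library. *upd1* was therefore not detectable in the differentiated classes at this depth.

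For *upd2*, 385 UMIs were counted in D30A and 86 in control progenitor-like cells, or 29.8 CPM (26.9 to 33.0) and 12.0 CPM (9.63 to 14.9). Enteroendocrine-like cells had 3.69 CPM in D30A and 7.62 CPM in control guts, from 5 and 6 UMIs, and enterocyte-like cells 1.81 and 0.775 CPM, from 38 and 12 UMIs. The ratio of progenitor-like to enterocyte-like cells was 16.5-fold in the D30A library and 15.5-fold in the control library. Against enteroendocrine-like cells it was 8.09-fold (3.44 to 25.1) in the D30A library, but 1.58-fold (0.697 to 4.42) in the control library, where the interval includes equality.

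For *upd3*, 498 UMIs in D30A and 302 in control progenitor-like cells gave 38.6 CPM (35.3 to 42.1) and 42.3 CPM (37.7 to 47.3). Enterocyte-like cells had 4.82 CPM in D30A and 4.59 CPM in control guts, and enteroendocrine-like cells 4.42 and 5.08 CPM. Progenitor-like cells thus led these classes in both libraries, and enterocyte-like and enteroendocrine-like cells did not differ beyond their intervals. Progenitor-like cells exceeded enteroendocrine-like cells 8.72-fold in the D30A and 8.32-fold in the control library, and enterocyte-like cells 8.01-fold and 9.22-fold. *upd2* and *upd3* were the 2 of 6 genes higher in progenitor-like than in enteroendocrine-like cells in each library, a ratio that 17.8% of all genes tested reached in the D30A library and 15.2% in the control library. None was lower, beside 52.9% and 57.9% of all genes.

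Free RNA can place a UMI in a cell that does not express the gene. A UMI of *upd3* was found in 2.75% of D30A and 2.11% of control enterocyte-like cells, and one of *upd2* in 1.18% and 0.438%. For comparison, the progenitor gene *esg* had a UMI in 4.77% of D30A and 2.07% of control enterocyte-like cells, whose median depth was 1297 and 979 UMIs. The ratio of progenitor-like to enterocyte-like CPM was 32.9-fold in the D30A and 43.5-fold in the control library for *esg*, above the ratios of *upd2* and *upd3*. Whether the ligand UMIs in enterocyte-like cells came from these cells or from free RNA was not tested. After each cell was thinned to 600 UMIs, *upd3* was present in 0.568% of D30A and 0.412% of control enterocyte-like cells, and *esg* in 1.92% and 1.10%. At this depth *upd3* was in 1.48% of D30A (0.639 to 2.89) and 2.31% of control (1.24 to 3.92) progenitor-like cells. Its interval overlaps that of enterocyte-like cells in D30A guts (0.303 to 0.970) but not in control guts (0.188 to 0.780). *upd2* was in 1.29% and 1.24% of progenitor-like and 0.437% and 0.229% of enterocyte-like cells, with overlapping intervals in both libraries.

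Transcripts of the signalling chain were spread over more cell types than those of the ligands. *dome* had 75.0 CPM (70.4 to 79.9) in D30A and 68.2 CPM (62.3 to 74.5) in control progenitor-like cells, and 63.4 and 71.2 CPM in enteroendocrine-like cells. In enterocyte-like cells it had 16.4 and 12.3 CPM. The receptor was therefore lowest in enterocyte-like cells, with ratios of progenitor-like to enterocyte-like cells of 4.59-fold in the D30A and 5.56-fold in the control library, while progenitor-like and enteroendocrine-like cells differed by 1.18-fold and 0.958-fold. *et* gave 13 UMIs in D30A and 6 in control progenitor-like cells, or 1.01 and 0.840 CPM, and 2 in enterocyte-like cells of each library.

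The kinase gene *hop* and the transcription factor gene *Stat92E* were closer between classes. *hop* had 12.9 CPM (11.1 to 15.1) in D30A and 10.5 CPM (8.26 to 13.2) in control progenitor-like cells, against 6.68 and 4.33 CPM in enterocyte-like cells. The ratios were 1.94-fold in the D30A and 2.43-fold in the control library. *Stat92E* had 178 CPM in D30A and 149 CPM in control progenitor-like cells, 184 and 183 CPM in enteroendocrine-like cells, and 100.3 and 67.3 CPM in enterocyte-like cells. Enteroendocrine-like and progenitor-like cells were therefore close, at 0.964-fold and 0.815-fold, and enterocyte-like cells lower, by ratios of 1.77 and 2.22.

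*Socs36E*, often read as a reporter of pathway output, had 424 CPM in D30A and 436 CPM in control progenitor-like cells. It had 370 and 325 CPM in enteroendocrine-like cells and 105 and 85.7 CPM in enterocyte-like cells. The ratio of progenitor-like to enterocyte-like cells was 4.04-fold in the D30A and 5.09-fold in the control library. Thinned to 600 UMIs, *Socs36E* was present in 24.0% of D30A and 26.5% of control progenitor-like cells, in 13.4% and 17.1% of enteroendocrine-like cells, and in 6.91% and 6.68% of enterocyte-like cells, the same order of classes as the CPM. Without thinning the shares were 93.4% and 86.0%, 70.1% and 54.4%, and 22.0% and 17.4%. The order of classes did not hold for each cluster. Enteroendocrine cluster 16 had *Socs36E* at 490 CPM in D30A and 446 CPM in control cells, above progenitor cluster 2 at 371 and 370 CPM. Enteroendocrine clusters 18, 23 and 25 had 270, 193 and 54.5 CPM in D30A and 280, 126 and 164 CPM in control cells.

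The main comparison set D30A against control cells of the same class. In progenitor-like cells, *upd2* was the only one of 6 JAK-STAT genes past 1.5-fold, and it was higher in D30A guts. None was lower. Of all 7248 genes tested in that class, 20.2% were higher and 6.4% lower by this measure, so 1 of 6 was near the background share. The *upd2* ratio was 2.48-fold (1.96 to 3.17). The log2 ratio was 1.31, against a median of 0.14 over all genes of the class. Over all kept cells *upd2* had 9.65 CPM in D30A and 3.68 CPM in control guts and was the only one of 7 genes past the fold, beside 28.8% of all genes higher and 3.81% lower.

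The other ligand, *upd3*, did not show this difference, with a ratio of 0.912-fold (0.789 to 1.06). *dome* had a ratio of 1.10-fold (0.985 to 1.23) and *hop* of 1.23-fold (0.933 to 1.64). *Stat92E* was 1.19-fold (1.11 to 1.28), a log2 ratio of 0.25 that lay 0.11 above the median of all genes. *Socs36E* was 0.972-fold (0.930 to 1.02), so the pathway's feedback target stayed within a narrow interval around equality, and 0.18 below the median of all genes on the log2 scale.

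**Figure D2:**
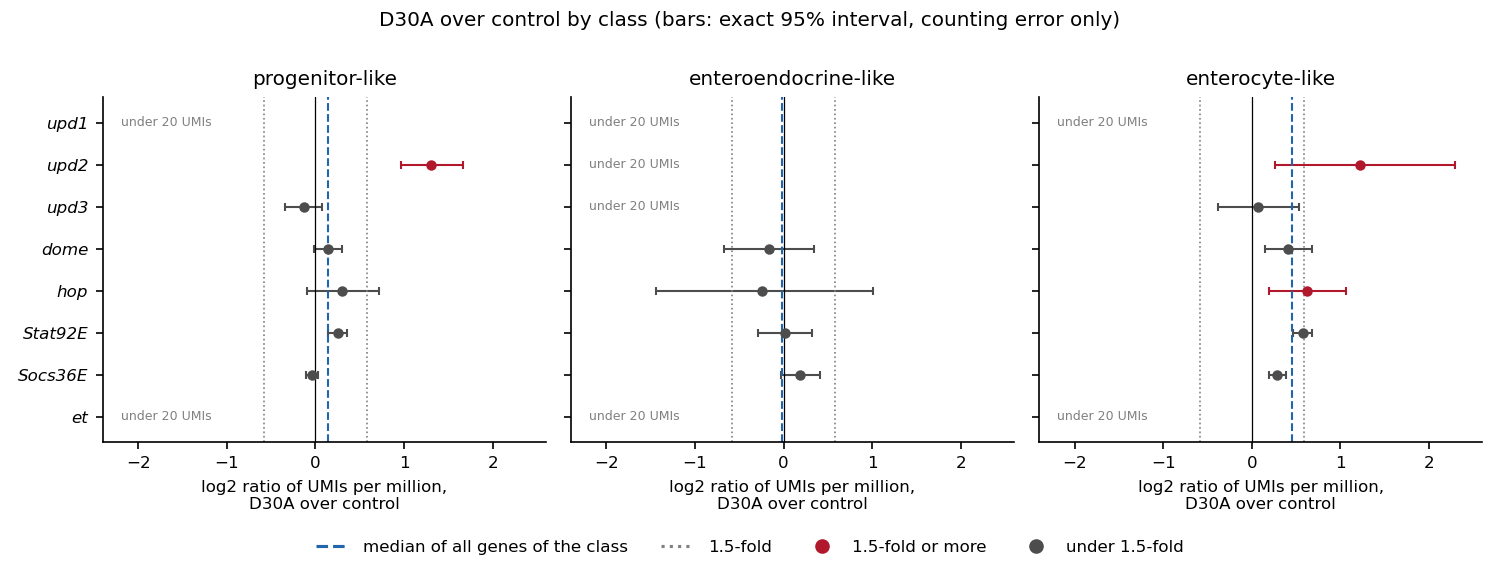
Log2 ratio of D30A over control for each JAK-STAT gene with at least 20 UMIs, by class, with 95% counting intervals. The dashed line is the median of all genes tested and the dotted lines mark 1.5-fold, and *upd2* lies above it at 1.31 in progenitor-like and 1.23 in enterocyte-like cells.

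The *upd2* difference did not rest on the shared barcodes or on the 1 cell with the most *upd2* in each library. D30A progenitor-like cells held 18 deeper copies and control cells 2, while 21 control cells were shallower copies. Among cells whose barcode was not shared, *upd2* had 33.1 CPM in D30A and 12.1 CPM in control progenitor-like cells, a log2 ratio of 1.45. The cell with the most *upd2* held 18 UMIs in D30A and 4 in control guts. Among progenitor-like cells, 20 in D30A and 0 in control guts held 5 or more *upd2* UMIs. The part of these cells in the difference was not tested. A UMI of *upd2* was found in 28.8% of D30A and 10.7% of control progenitor-like cells, and at least 2 UMIs in 13.8% and 2.80%.

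The gap in those shares was smaller at equal depth. Thinned to 3350 UMIs each, which kept 497 D30A and 459 control cells, 8.65% of D30A cells (6.33 to 11.5) and 4.58% of control cells (2.85 to 6.91) held *upd2*. The intervals of these thinned shares overlap at their edges. At 1150 UMIs *upd2* was in 17 of 538 D30A and 8 of 533 control cells, with overlapping intervals of 1.85% to 5.01% and 0.650% to 2.94%. At 600 UMIs *upd2* was in 7 of 542 D30A and 7 of 563 control cells, or 1.29% and 1.24%. No gap was seen at that depth, where few cells held *upd2*. At 3350 UMIs the shares of *upd3* were 9.05% in D30A and 12.2% in control cells, those of *Socs36E* 72.2% and 76.3%, and those of *Stat92E* 43.5% and 37.5%. Without thinning, *upd3* was in 36.9% of D30A and 25.7% of control cells, *Socs36E* in 93.4% and 86.0%, and *Stat92E* in 83.4% and 67.3%. The order of the genotypes at 3350 UMIs was thus the reverse for *upd3* and *Socs36E* but not for *upd2* or *Stat92E*. For each of these genes the thinned intervals of the genotypes overlap, and the thinning was 1 random draw. At 1150 UMIs *Socs36E* was in 43.1% of D30A and 43.0% of control cells. The thinned share of *esg* was itself 62.0% in D30A and 50.1% in control cells, and the trypsin transcript *betaTry*, an enterocyte product that marks free RNA here, had 506 CPM in D30A and 905 CPM in control progenitor-like cells. Summed enterocyte markers were 3939 CPM in D30A and 8277 CPM in control progenitor-like cells. Heat shock genes, 11 genes chosen after their values were seen, summed to 403 CPM in D30A and 613 CPM in control progenitor-like cells, and the median mitochondrial share was 3.62% and 1.13%. The part of these measures in the *upd2* difference was not tested.

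**Figure D3:**
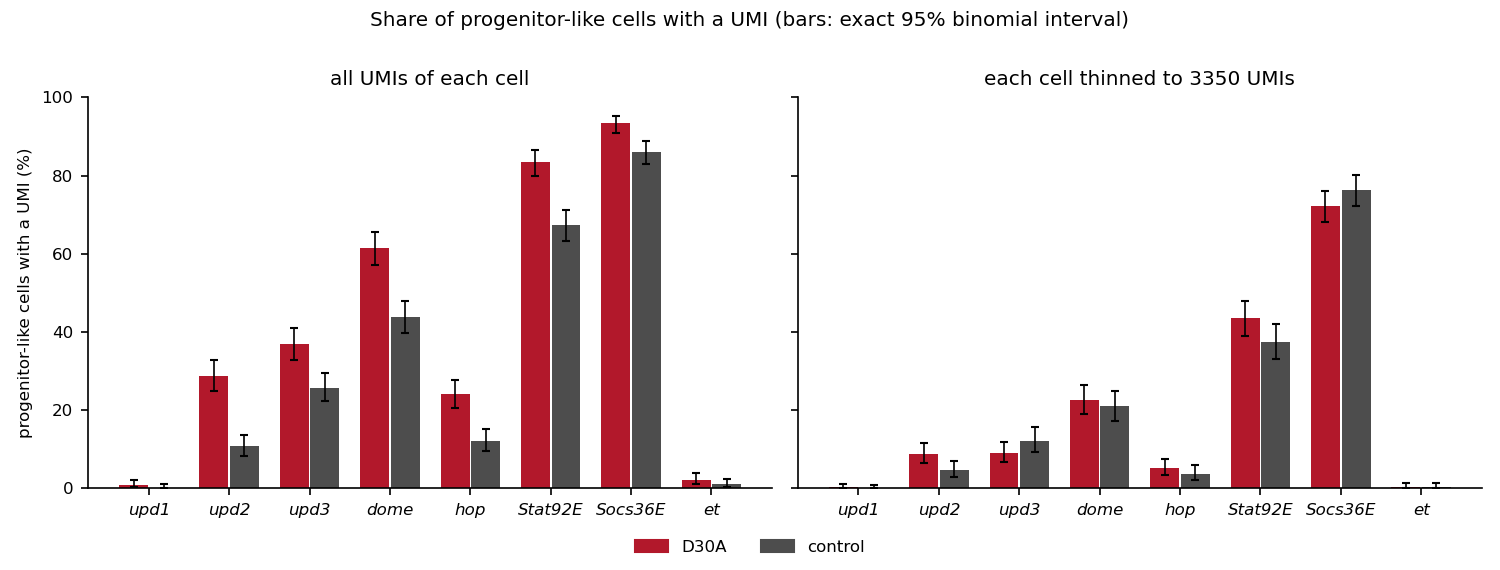
Percent of progenitor-like cells with at least 1 UMI of each JAK-STAT gene, as measured and after thinning each cell to 3350 UMIs, D30A left of control, with exact 95% intervals. For *upd2* the shares are 28.8% and 10.7% as measured and 8.65% and 4.58% after thinning.

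Progenitor-like cells formed 2 clusters, one of which was led by *Dl*, the Notch ligand of stem cells. *upd2* was at 45.5 CPM in D30A and 17.8 CPM in control cells of the *Dl*-led cluster, and at 21.9 and 8.18 CPM in the other. It was the only one of 6 genes past 1.5-fold between these clusters, with ratios of 2.08-fold (1.70 to 2.56) in the D30A and 2.18-fold (1.39 to 3.45) in the control library, beside 16.4% and 12.8% of all genes, and none was lower, beside 6.85% and 9.8%. D30A exceeded control cells 2.55-fold (1.87 to 3.55) in the *Dl*-led cluster and 2.67-fold (1.86 to 3.95) in the other, so the genotype ratio was alike in both. In D30A over control cells 24.2% of all genes were higher and 5.73% lower in the *Dl*-led cluster, and 20.4% and 8.08% in the other.

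*Stat92E* ran the opposite way. Its level in the *Dl*-led cluster relative to the other was 0.733-fold in the D30A and 0.720-fold in the control library, whereas *Socs36E* was 1.42-fold and 1.44-fold. Cells split by a UMI of *Dl* itself gave *upd2* ratios, positive over negative, of 1.73-fold (1.40 to 2.14) in the D30A and 1.30-fold (0.827 to 2.04) in the control library. Cells with a *Dl* UMI were the deeper ones in both libraries, at medians of 19074 against 16189 UMIs in D30A and 11019 against 9116 UMIs in control guts.

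Progenitor-like cells thinned to 3350 UMIs were also split by *upd2*. *upd3* was found in 18.6% of D30A cells that held *upd2* (8 of 43, interval 8.39 to 33.4) and in 8.15% of those that did not. In control cells the shares were 33.3% (7 of 21, 14.6 to 57.0) and 11.2%. *Socs36E* was found in 86.0% of D30A cells with *upd2* and 70.9% of those without, and in 90.5% and 75.6% of control cells. The shares were higher in *upd2*-positive cells in both libraries, but these cells are few and their intervals wide.

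In enteroendocrine-like cells none of the 4 JAK-STAT genes with at least 20 UMIs passed 1.5-fold between D30A and control guts, where 15.6% of all genes were higher and 12.5% lower. *Stat92E* had 250 UMIs in D30A and 144 in control cells, or 184 and 183 CPM, and the log2 ratio was 0.01. *Socs36E* was 1.14-fold (0.977 to 1.33). The log2 ratios of *dome* and *hop* were -0.17 and -0.24. The heat shock genes summed to 7940 CPM in D30A and 5272 CPM in control enteroendocrine-like cells, and their part in these values was not tested.

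In enterocyte-like cells *upd2* and *hop* were the 2 of 6 genes higher in D30A guts and none was lower. Here 40.2% of all genes were higher and 2.24% lower, and the median log2 ratio over all genes was 0.46. *upd2* was 2.34-fold, a log2 ratio of 1.23 (0.26 to 2.30), from 38 UMIs in D30A and 12 in control cells. *hop* was 1.54-fold (1.15 to 2.10), *Stat92E* 1.49-fold (1.38 to 1.61), *dome* 1.33-fold and *Socs36E* 1.22-fold (1.14 to 1.31). Set against the median of all genes, only *upd2* remained past the fold. *upd3*, the ligand best known from stressed enterocytes, had a log2 ratio of 0.07 in this class.

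The enterocyte-like class is made of 10 clusters, and their shares of cells differed between libraries. Cluster 10 had 41 D30A and 226 control cells, and cluster 15 had 26 and 174. A class level sums UMIs, so a cluster weighs by its UMIs and not by its cells. Cluster 1, with 370 D30A and 388 control cells, had *Stat92E* at only 50.9 and 30.5 CPM. A shift in the share of UMIs between clusters enters the class ratios above, and its part in them was not tested. *Stat92E* had a D30A over control log2 ratio above 0 in 8 of the 9 clusters in which it had at least 20 UMIs, with values between -0.23 and 0.80 and a median of 0.40. The ratio was above the median of all genes of the cluster in 6 of the 9, and its interval lay above 0 in 2. *Socs36E* did not follow. Its log2 ratio was above 0 in 3 of 9 clusters, ranging from -1.62 to 0.60 with a median of -0.31, although the class as a whole had 0.29. It was above the median of all genes in 2 clusters, and its interval lay above 0 in 2 and below 0 in 3. The log2 ratio of *dome* was above 0 in 4 of 5 clusters with at least 20 UMIs, and that of *hop* in 4 of 4. They were above the median of all genes in 1 and 2 of these, and no interval excluded 0.

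*Socs36E* spanned a wide range among these clusters. In D30A guts it was highest in cluster 13, at 285 CPM (267 to 303), and in control guts in cluster 0, at 227 CPM (189 to 271). The lowest level was in cluster 1 in both libraries, at 25.4 CPM in D30A and 16.7 CPM in control cells. Intervals of neighbours in the order were separate for 3 of 9 pairs in D30A and 2 of 9 in control guts. The genotypes differed most in cluster 10, where *Socs36E* had 47.4 CPM in D30A and 145 CPM in control cells, and ran the other way in cluster 1, with a log2 ratio of 0.60 (0.27 to 0.94), and in cluster 13, at 285 CPM in D30A and 206 CPM in control cells.

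Among the enterocyte clusters, *Stat92E* and *dome* were highest in cluster 13 in both libraries. *Stat92E* had 159 CPM in D30A and 153 CPM in control cells of this cluster, and *dome* 33.5 and 32.7 CPM. *hop* had 13.0 and 12.0 CPM there. *Stat92E* and *hop* in cluster 13 were thus close to progenitor-like cells, at 178 and 149 CPM for *Stat92E* and 12.9 and 10.5 CPM for *hop*. The higher level in progenitor-like cells holds for the enterocyte-like class as a whole and not for each of its clusters. Of all 26 clusters, unnamed cluster 19 had the highest *Stat92E*, *Socs36E* and *hop* in both libraries. It held 32 D30A and 56 control cells and 7 enterocyte markers, and non-coding RNA genes led it. Its levels were 434 CPM (319 to 577) in D30A and 341 CPM (250 to 455) in control cells for *Stat92E*. They were 536 CPM (407 to 693) and 801 CPM (657 to 967) for *Socs36E*. *hop* had 4 UMIs in each library. *upd3* was highest among enterocyte clusters in cluster 0, at 15.5 CPM (7.41 to 28.4) in D30A and 14.5 CPM (6.28 to 28.7) in control cells. No neighbouring clusters in the order had separate intervals for *dome*, *hop*, *upd2* or *upd3*.

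The highest *upd3* level of all 26 clusters, in both libraries, lay in a small cluster that carried fewer than 3 of the listed markers of any class and is called here by its genes *Irk2*, a potassium channel, and *Pvf1*, a growth factor. It was singled out after its values were seen. It held 37 D30A and 40 control cells, with medians of 30096 and 7801 UMIs, and was not a progenitor cluster by *esg*, at 1.83 and 2.44 CPM from 5 and 4 UMIs. *upd3* had 184 UMIs in D30A and 177 in control cells, or 67.3 CPM (57.9 to 77.8) and 108 CPM (92.5 to 125), and was found in 54.1% and 55.0% of cells. Those shares depend on depth. Thinned to 1150 UMIs, which kept 29 D30A and 34 control cells, they were 3.45% (0.0873 to 17.8) and 8.82% (1.86 to 23.7). Progenitor-like cells at that depth had 3.72% (2.29 to 5.68) and 5.44% (3.67 to 7.72), so the intervals overlap. Relative to enterocyte-like cells of the same library, *upd3* was 14.0-fold and 23.5-fold higher, and *Socs36E* 4.33-fold and 4.43-fold. In all, 5 of 6 genes in the D30A library and 5 of 5 in the control library were higher than in enterocyte-like cells, beside 41.5% and 59% of all genes, and none was lower, beside 18.2% and 13.8%. Of the marker lists, hemocyte and fat body genes were at 0 in this cluster in both libraries. Visceral muscle genes summed to 113 CPM in D30A and 107 CPM in control cells, and enterocyte genes to 28873 and 26781 CPM. Enteroendocrine genes were at 1036 CPM in D30A and 77.9 CPM in control cells, neuron genes at 38.0 and 8.53 CPM, and progenitor genes at 139 and 88.9 CPM. Their part in the genotype ratios of this cluster was not tested.

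**Figure D4:**
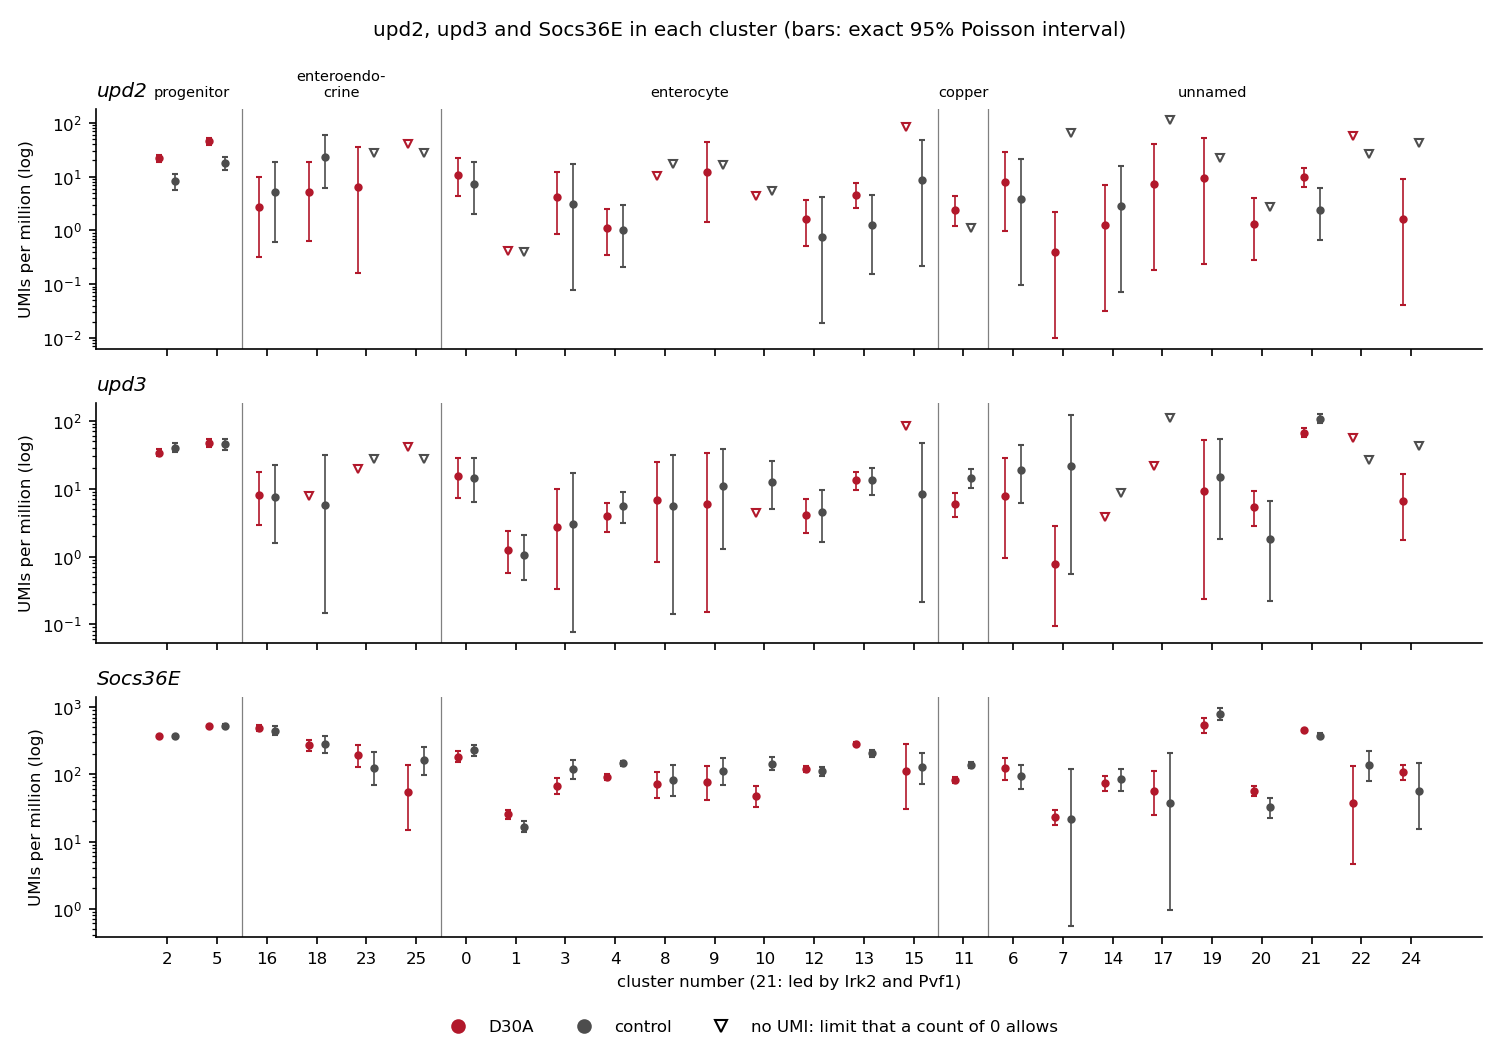
Level of *upd2*, *upd3* and *Socs36E* (CPM, log axis, 95% counting interval) by cluster number, D30A left of control, grouped by class, with open triangles at the limit that a count of 0 allows. *upd3* is highest in cluster 21, the *Irk2* *Pvf1* cluster, at 67.3 in D30A and 108 in control cells, and *upd2* in D30A guts in cluster 5, the *Dl*-led progenitor cluster, at 45.5.

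The genotype difference of *upd3* in this cluster turned with the shared barcodes. With all cells the D30A over control ratio was 0.624-fold (0.505 to 0.772), and *upd3* and *hop* were the 2 of 6 genes lower, with *upd2* higher at 4.05-fold (1.41 to 15.9), beside 12.9% and 23.6% of all genes. Deeper copies made up 12 of the 37 D30A cells and 6 of the 40 control cells, with 82.0% and 55.1% of the cluster's UMIs, and shallower copies another 5 and 10. Among cells with no shared barcode, 51 UMIs in D30A and 48 in control cells gave 105 CPM and 66.0 CPM, a log2 ratio of 0.67 (0.07 to 1.27). A single cell held 17.9% of the D30A and another 31.1% of the control *upd3* UMIs. The level of *upd3* was high in either set of cells, while no direction between genotypes held in both. For *upd2*, 1 cell held 37.0% of the D30A UMIs, and the cells with no shared barcode had 15 UMIs in D30A and 1 in control cells, or 30.8 and 1.37 CPM.

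Copper cell-like cells, the acid-secreting type, had 11 UMIs of *upd2* in D30A guts, of which 1 cell held 10, and 0 in control guts, which allows up to 1.10 CPM. *upd3* had 27 UMIs in D30A and 39 in control cells, or 5.88 and 14.3 CPM, and *Socs36E* 82.5 and 140.3 CPM. They were the 2 of 5 genes lower in D30A guts and *hop* was higher at 1.70-fold, beside 5.82% and 26.4% of all genes. Without the shared barcodes neither was past 1.5-fold, with log2 ratios of -0.37 for *upd3* and -0.51 for *Socs36E*.

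A list of 26 further regulators and reported targets of the pathway was read beside the core genes. In progenitor-like cells 14 had at least 20 UMIs, with a median log2 ratio of 0.17 against 0.14 over all genes. Of the 14, 1 was higher in D30A guts and none lower, beside 20.2% and 6.4% of all genes. The 1 was *vir-1*, a virus-induced target, with 24 UMIs in D30A and 7 in control cells and a ratio of 1.90-fold (0.793 to 5.21) whose interval includes equality. In enteroendocrine-like cells 2 of 12 were lower in D30A guts and none higher, beside 12.5% and 15.6% of all genes. *Tep2*, a thioester protein of the immune response, had 7 UMIs in D30A and 31 in control cells, or 5.16 and 39.4 CPM, a ratio of 0.131-fold (0.0487 to 0.303). *asrij*, an endosomal regulator known from blood cells, had 40.5 and 72.4 CPM, or 0.560-fold.

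In enterocyte-like cells 3 of 16 were higher in D30A guts and none lower, beside 40.2% and 2.24% of all genes. *Stam*, an endosomal sorting gene, had 50.8 CPM in D30A and 28.6 CPM in control cells (1.78-fold), and *Socs16D*, a relative of *Socs36E*, 30.5 and 19.1 CPM (1.60-fold). *TotM*, a stress-induced secreted peptide, had 15 UMIs in D30A and 5 in control cells, with a ratio of 2.21-fold (0.765 to 7.79) that includes equality. The median of the list in this class was 0.18, below the 0.46 of all genes.

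Among list members with the most UMIs was *wdp*, whose product lowers the amount of Dome at the cell surface. It had 176 CPM in D30A and 249 CPM in control progenitor-like cells (0.704-fold), 306 and 404 CPM in enteroendocrine-like cells, and 112 CPM in enterocyte-like cells of either library. *nej*, a transcriptional coactivator, had 114 and 102 CPM in progenitor-like cells and 165 and 166 CPM in enteroendocrine-like cells, and *Tep4*, a thioester protein, 93.4 and 82.5 CPM, then 98.8 and 95.3 CPM. None of these was past 1.5-fold between genotypes in the classes named.

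Genes with the most similar pattern were ranked by Pearson's r of log2(CPM + 1) over 34 cluster-by-library groups of at least 50 cells, among 6803 genes. These groups share their 2 libraries and differ in depth, so r is a description. The *Irk2* *Pvf1* cluster, with 37 D30A and 40 control cells, was too small to be among them, so the values for *upd3* leave out its highest cluster. *upd2* was most like *jigr1* (0.84), *CG17765* (0.82) and *Sox100B* (0.81). *upd3* was most like *Ets21C* (0.81), *CG1572* (0.79) and *Rel* (0.78), of which *Ets21C* encodes a stress-responsive transcription factor and *Rel* the NF-kB factor of the IMD pathway.

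The other genes had closer neighbours. *Socs36E* was most like *S*, which encodes the EGF-ligand trafficking protein Star, and *upSET* (0.93 each), then *hep* (0.91), a kinase that activates JNK. *Stat92E* was most like *CtBP* (0.91), *Fim* (0.90) and *peb* (0.89), and *dome* like *puf* (0.87), *glec* (0.85) and *RhoBTB* (0.84). *hop* was most like *CG5316* and *alpha-Cat* (0.78 each) and *Ptp99A* (0.76). Among the JAK-STAT genes themselves, *Socs36E* had an r of 0.80 with *Stat92E*, 0.76 with *dome* and 0.66 with *upd3*, whereas *upd2* and *upd3* had 0.38.

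Markers of cells outside the epithelium differed between classes. Of 10 visceral muscle genes, 7 had a UMI in D30A and 4 in control progenitor-like cells, summing to 19.4 and 19.3 CPM, with *Mlc1* and *Act57B* at 0 in both. The same list summed to 162 and 243 CPM in enteroendocrine-like cells, from 4 and 6 genes, and to 55.2 and 51.8 CPM in enterocyte-like cells, from all 10. Of 6 hemocyte genes, *Hml*, *NimC1*, *He*, *eater* and *Pxn* were at 0 in progenitor-like cells of both libraries. The part of these markers in the levels above was not tested.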

How the data were processed

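Dissociated cells were run on the 10x Chromium Single Cell 3′ system. The authors deposited raw UMI counts per gene and barcode, made with Cell Ranger (matrix header version 3.0.2). Their processing notes also name Seurat 3.1.1, whereas the genome build is not given in the sources used here. A count of a 3′ tag is not scaled by gene length, so levels of different genes were not compared.

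A barcode needed 200 detected genes and no more than 25% of its UMIs from mitochondrial genes. The barcodes ranked highest by Scrublet were removed as likely doublets at 0.8% per 1000 barcodes. Cells were integrated and clustered with Seurat 5.3.0 (2000 variable genes without the reported genes, 30 dimensions, resolution 0.8). Naming a cluster took 3 or more markers of a class, detected in 10% of its cells or more and 1.5-fold above the rest. Clusters with fewer, with mixed leading genes, or led by non-coding RNA genes (a rule added after the clusters were seen) stayed unnamed.

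UMIs were summed per class and library. Intervals are exact (Poisson for levels, Clopper-Pearson for shares, binomial for ratios of counts). A gene counted as higher or lower at 1.5-fold with at least 20 UMIs over both groups. Thinning drew UMIs without replacement. Total UMIs of kept cells were 49313792 in the D30A and 29898705 in the control library. Scripts were tested on simulated data. Named genes were the 8 core genes, list members past 1.5-fold or among the 3 highest in a class, and the 3 most similar genes. The genes and lists were chosen with earlier results of these data known. Sums and intervals were made in Python 3.11.15 with scipy 1.17.1, and scanpy 1.11.5 held Scrublet.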

Additional observations from a re-analysis of the deposited data

How the results depend on the processing

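The 8 genes were recounted under other resolutions, filters, doublet handling, merging, marker rules, folds and UMI minimums, and, chosen after seeing the data, without shared barcodes, without their shallower copies, in cells of at most 10% mitochondrial UMIs, and without the top cell of each gene. Of 198 counts of genes under an alternative 183 stayed within 1.5 times the reported count. The log2 ratio of *upd2* in progenitor-like cells ranged from 1.07 to 1.61 over 11 alternatives and stayed past 1.5-fold in all of them, and in enterocyte-like cells from 0.85 to 2.25. Some alternatives changed which cells a class held. Progenitor-like cells, 542 in D30A and 571 in control guts as reported, numbered 966 and 643 at resolution 1.2. With classes from single marker transcripts they numbered 316 and 518. The 6 genes higher in progenitor-like than in enterocyte-like cells became 4 in the D30A library with classes from single marker transcripts, relative to the median of all genes and at a fold of 2, and 5 in the control library with the mean of per-cell CPM and relative to that median, and 7 (with *et*) in the D30A library at 10 UMIs. In enterocyte-like cells the 2 genes higher in D30A guts became 1 (*upd2*) at resolution 0.4, with the mean of per-cell CPM, relative to the median of all genes, and at a fold of 2. In enteroendocrine-like cells 2 genes were higher with classes from single marker transcripts and 1 was lower at a minimum of 10 UMIs. In progenitor-like cells 2 were higher with the mean of per-cell CPM (*upd2* and *hop*). In the *Irk2* *Pvf1* cluster the 2 lower genes became 1 at a fold of 2, at 50 UMIs and without the top cell, and 0 without shared barcodes, where 2 were higher, against 0 higher at 50 UMIs. The 2 lower genes in copper cell-like cells became 0 without shared barcodes. In the *Dl*-led cluster over the other, 2 genes were higher in D30A cells of at most 10% mitochondrial UMIs. The log2 ratio took another sign in 22 of 344 cases, of which 2 were past 1.5-fold as reported: *hop* in enterocyte-like cells with the mean of per-cell CPM (-0.38) and *upd3* in the *Irk2* *Pvf1* cluster without shared barcodes (0.67). The others include, with the mean of per-cell CPM, *Stat92E* in the *Irk2* *Pvf1* cluster (-0.73), *Socs36E* in enterocyte-like cells (-0.09) and *dome* in progenitor-like cells (-0.10), and *upd3* in enterocyte-like cells at resolution 0.4 (-0.27). The cause was not tested, other than that a mean of per-cell CPM weights shallow cells as much as deep ones. Of 48 shares of cells, 38 moved when cells were thinned and 42 when 2 UMIs were asked for, both of which lower a share by construction. No paired analysis was possible because each genotype had 1 library. Depth limited *upd1* and *et* to counts.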
